A study of Mus musculus with 8 samples.

Results

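Colon RNA of mice colonized with Candida was examined for 33 genes that interferon-gamma is known to switch on: chemokines, guanylate-binding proteins (GBPs), immunity-related GTPases (IRGs), the regulators of the response, the inducible proteasome subunits, the genes that load peptides onto MHC class I, the class I chains, the enzyme Ido1 and the ubiquitin-like modifier Ubd. The members were chosen by symbol, with no measured value in the rule, and all 33 were found among the 52636 gene rows of the count table. The mice were WT C57BL/6 females, 6 weeks old, germ-free and kept in gnotobiotic isolators. The 3 groups were control mice (3 libraries), mice given C. albicans SC5314 by oral gavage (3 libraries) and mice given C. tropicalis MYA-3404 the same way (2 libraries), with colon taken at day 30. Whether controls were gavaged, and whether each library is a separate mouse, is not given in the labels, so the p-values rest on differences among libraries that may be partly technical. No deletion, transgene or drug was named for any group.

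Interferon-gamma is made mainly by T cells, NK cells and innate lymphoid cells. It binds IFNGR1 and IFNGR2, and the kinases JAK1 and JAK2 pass the signal on to genes with gamma-activated sites in their DNA. IRF1 is induced early and acts on interferon-stimulated response elements, so that a further wave of genes follows. Among these are GBPs and IRGs, large GTPases that attack the vacuoles of intracellular microbes, and the set of proteasome, transporter and class I genes by which a cell displays its peptides to CD8 T cells. In the colon the epithelium and the macrophages beneath it both respond to the cytokine, and the resident microbes help to set its level.

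The DNA just before each gene's start was searched for the sites through which interferon-gamma acts, and the following 100-base stretches are shown because they hold one of them. RefSeq promoter windows (GRCm38.p6, 250 bases before to 50 after a gene's start) were at hand for 23 of the 33 members. Both strands were searched for the core of the interferon-stimulated response element (GAAA, any 2 bases, GAAA), for the gamma-activated site (TTC, any 3 bases, GAA), and for a joined motif, in which that site, any 2 bases and that core follow each other and which therefore contains both. Each stretch is given 5′ to 3′ on the gene's strand and capitals mark the response element core, which reads TTTC, any 2 bases, TTTC where it lies on the opposite strand.
Igtp, chr11:58199456-58199555 (plus strand): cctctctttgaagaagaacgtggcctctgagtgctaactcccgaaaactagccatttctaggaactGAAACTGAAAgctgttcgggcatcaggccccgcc
Irgm2, chr11:58214868-58214967 (plus strand): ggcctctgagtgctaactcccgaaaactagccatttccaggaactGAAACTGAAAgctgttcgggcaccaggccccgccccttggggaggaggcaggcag
Tgtp1, chr11:48992269-48992368 (minus strand): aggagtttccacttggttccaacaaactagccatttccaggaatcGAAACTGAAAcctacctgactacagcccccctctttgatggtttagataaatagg
Tgtp2, chr11:49064228-49064327 (minus strand): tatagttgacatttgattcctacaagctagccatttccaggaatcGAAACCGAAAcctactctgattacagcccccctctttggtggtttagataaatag
Gbp5, chr3:142496724-142496823 (plus strand): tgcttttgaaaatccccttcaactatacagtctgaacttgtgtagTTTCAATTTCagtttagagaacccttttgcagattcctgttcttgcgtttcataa
Gbp7, chr3:142530236-142530335 (plus strand): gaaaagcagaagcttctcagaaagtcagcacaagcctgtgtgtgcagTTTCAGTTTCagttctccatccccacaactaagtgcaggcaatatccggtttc
Cxcl10, chr5:92349040-92349139 (minus strand): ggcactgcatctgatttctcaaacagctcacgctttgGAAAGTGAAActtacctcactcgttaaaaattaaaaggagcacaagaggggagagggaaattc
Socs1, chr16:10785559-10785658 (minus strand): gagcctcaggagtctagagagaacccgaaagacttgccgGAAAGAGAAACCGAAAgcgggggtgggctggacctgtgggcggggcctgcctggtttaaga
B2m, chr2:122147503-122147602 (plus strand): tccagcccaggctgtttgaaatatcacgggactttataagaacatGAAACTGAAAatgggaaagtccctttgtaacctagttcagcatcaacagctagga

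The response element core was in the windows of 12 of the 23 members (Cxcl10, Gbp2, Gbp3, Gbp5, Gbp7, Igtp, Irgm1, Irgm2, Tgtp1, Tgtp2, Socs1 and B2m), against 3.993% of the 27025 genes with a window. In Gbp2 it read TTTCACTTTC, 59 to 50 bases before the start, and in Irgm1 a pair of overlapping matches, GAAATAGAAA and GAAACCGAAA, lay 30 to 15 bases before it. The gamma-activated site was in the windows of 9 members (Gbp5, Gbp7, Igtp, Irgm2, Tgtp1, Tgtp2, Irf1, Irf8 and Psmb8), against 9.554% of all genes. Only 5 of the 27025 genes held the joined motif, and 4 of those 5 were the IRG genes Igtp, Irgm2, Tgtp1 and Tgtp2. In Igtp it read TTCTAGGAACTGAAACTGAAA, 45 to 25 bases before the start, and in Irgm2 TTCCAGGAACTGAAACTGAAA, 75 to 55 bases before. The stretches of Tgtp1 and Tgtp2 carried TTCCAGGAATCGAAACTGAAA and TTCCAGGAATCGAAACCGAAA. The fixed spacing of the joined motif is the one these 4 genes carry, and no separate basis for choosing it is given. The printed stretches of Igtp and Irgm2 are nearly the same, and those of Tgtp1 and Tgtp2 are closely alike. The 4 matches are therefore not independent, and their count is no test against the other genes. A match of letters describes the window and shows neither binding nor use of a site.

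Each library held 16195376 to 19761098 counts, and the floor set by a count of 0 is 3 counts, or 0.157 to 0.183 CPM (counts scaled to the library's size), for counting error only. The colon label was matched by epithelial markers, with Epcam between 1299 and 1677 CPM in the 8 libraries and all 16 markers of the epithelial list detected. Other markers of this list were far less even. Cdx2 ran from 26.3 to 470 CPM (mean 357 with C. albicans and 27.4 with C. tropicalis). Car1 ran from 179.5 to 2255 CPM (mean 306 and 2243 in the same order). The controls varied widely as well. Control 1, 2 and 3 stood at 339.5, 192.1 and 26.9 CPM for Cdx2 and at 242.8, 388.5 and 1602 CPM for Car1. An edgeR quasi-likelihood fit of all 8 libraries tested 16107 genes, 31 members among them. Cxcl11, a T cell chemokine listed as a polymorphic pseudogene in this annotation, had 30 counts in all libraries together (2 to 7 in each), and Gbp10 had 3 counts, all in C. albicans 1. Both were below the filter on low counts.

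The class I chains stood far above the rest in level. Per kb of exon, H2-K1 averaged 647 CPM over the 8 libraries, H2-D1 510.1 and B2m 509, where Psmb10 averaged 105, Tapbp 95.7, Irf1 26.5, Irf8 14.3 and Tap2 10.7. The GTPase with the highest level per kb was Gbp2 at 7.08 CPM per kb, followed by the IRGs Irgm1 (4.94), Igtp (4.62) and Irgm2 (4.53), whose libraries overlapped one another. This order rests on the length of all annotated exons joined (2.516 kb for Gbp2 and 5.81 kb for Irgm1). In CPM, Irgm1 lay above Gbp2 in every library. The other GBPs lay between 0.114 (Gbp6) and 1.74 (Gbp3) CPM per kb, apart from Gbp10 at 0.00544. The chemokines were near the detection limit, with Cxcl10 at 0.549, Cxcl9 at 0.182 and Cxcl11 at 0.0558 CPM per kb. Interferon-gamma itself (Ifng) had 1 count in control 1, 1 in C. albicans 3 and 0 in the other 6 libraries.

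**Figure D1:**
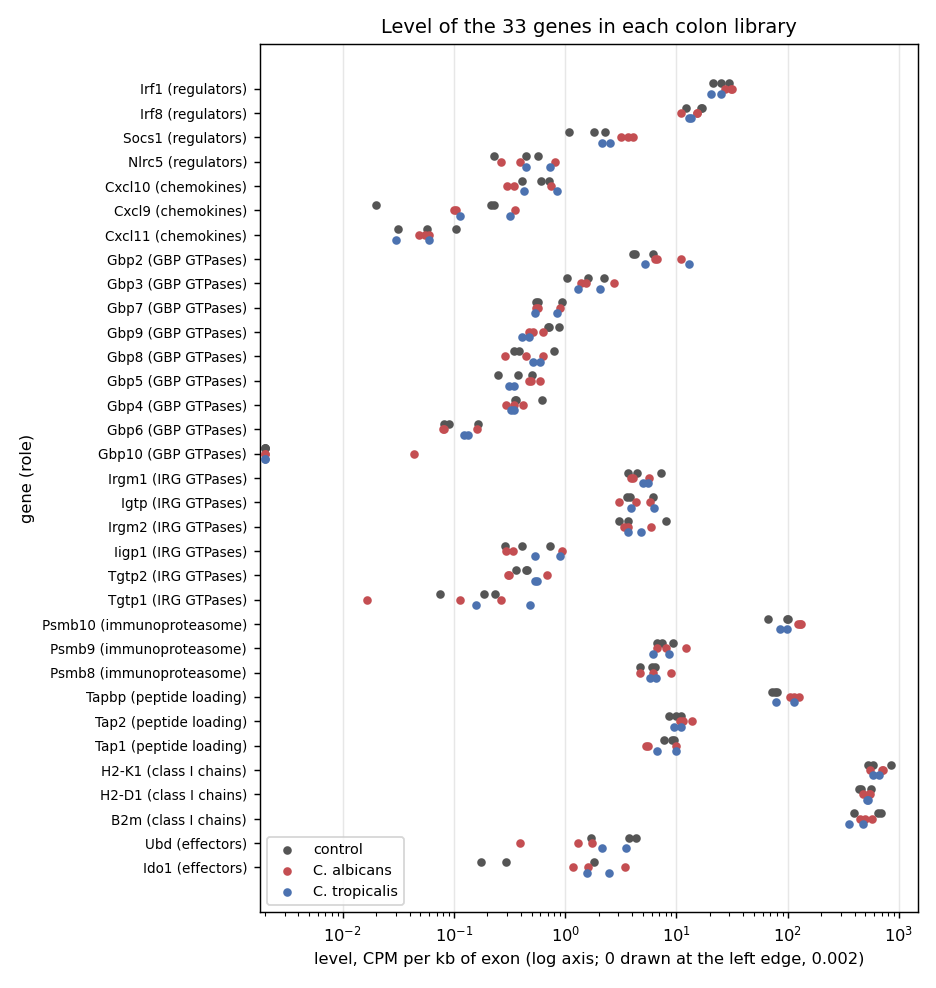
Level of each of the 33 genes in every colon library, in CPM per kb of exon on a log axis; each point is 1 library and 0 is drawn at 0.002. The class I chains H2-K1, H2-D1 and B2m lie at the top of the scale, Psmb10 and Tapbp next, and most GBPs, the chemokines and Tgtp1 below 1 CPM per kb.

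No member passed an adjusted p of 0.05 in any of the 3 comparisons by the edgeR test. Across all genes 0.0435% passed for C. albicans against control (7 genes) and 0.0310% for C. tropicalis against control (5 genes; 0.0621% at an adjusted p under 0.1), so few calls were available to any list. For C. tropicalis against C. albicans 0% passed, with 1481 genes (9.19%) at an adjusted p under 0.1, none of them members. At an unadjusted p under 0.05, C. albicans against control gave 4 members (3 higher, 1 lower) beside 15.4% of all genes (9.13% higher, 6.31% lower). The same rule gave 2 members (1 higher, 1 lower) for C. tropicalis against control beside 15.4% of all genes (7.33% higher, 8.05% lower). It gave 2 members, both lower, for C. tropicalis against C. albicans beside 23.2% (8.83% higher, 14.4% lower). The comparisons share control or C. albicans libraries and are not independent of each other.

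The members' fold changes lay on both sides of 0. Their median log2 fold change was 0.037 for C. albicans against control (17 higher and 14 lower, beside 48.2% of all genes higher), where the median of all tested genes was -0.016. It was 0.055 for C. tropicalis against control (20 higher and 11 lower, beside 47.9% of all genes higher), with -0.019 for all genes. Between the species it was -0.018 (14 higher and 17 lower, beside 53.7% higher), with 0.038 for all genes. These medians moved with single libraries and with a covariate. The C. albicans median was 0.26 without control 1, -0.26 without C. albicans 1 and 0.21 without C. albicans 2, and the C. tropicalis median was 0.19 without control 1, 0.17 without C. tropicalis 2 and -0.06 without C. tropicalis 1. The median between the species was 0.25 without C. albicans 1, 0.17 without C. tropicalis 2 and -0.18 without C. tropicalis 1. With a score of smooth muscle genes as a term in the fit, the medians were 0.31 for C. albicans, -0.24 for C. tropicalis and -0.43 between the species. The score was lower in both C. tropicalis libraries (-1.21 and -0.861) than in all others. Values from this fit therefore cannot fully separate the score from the group. The libraries of C. albicans and control did not overlap for 5 members (Socs1, Tapbp, Psmb10 and Gbp2 higher, Gbp9 lower), beside 19.4% of all genes (9.82% higher, 9.57% lower). For C. tropicalis and control they did not overlap for 3 members (Tgtp2 higher, Gbp4 and Gbp9 lower), beside 32.5% (16% higher, 16.5% lower). Between the species it was 5 members (Ubd higher, Gbp5, Irf1, Psmb10 and Socs1 lower), beside 45.9% (23.4% higher, 22.4% lower). In each comparison the members' share was below that of all genes, but for C. albicans the shares were close (16.1% beside 19.4%).

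**Figure D2:**
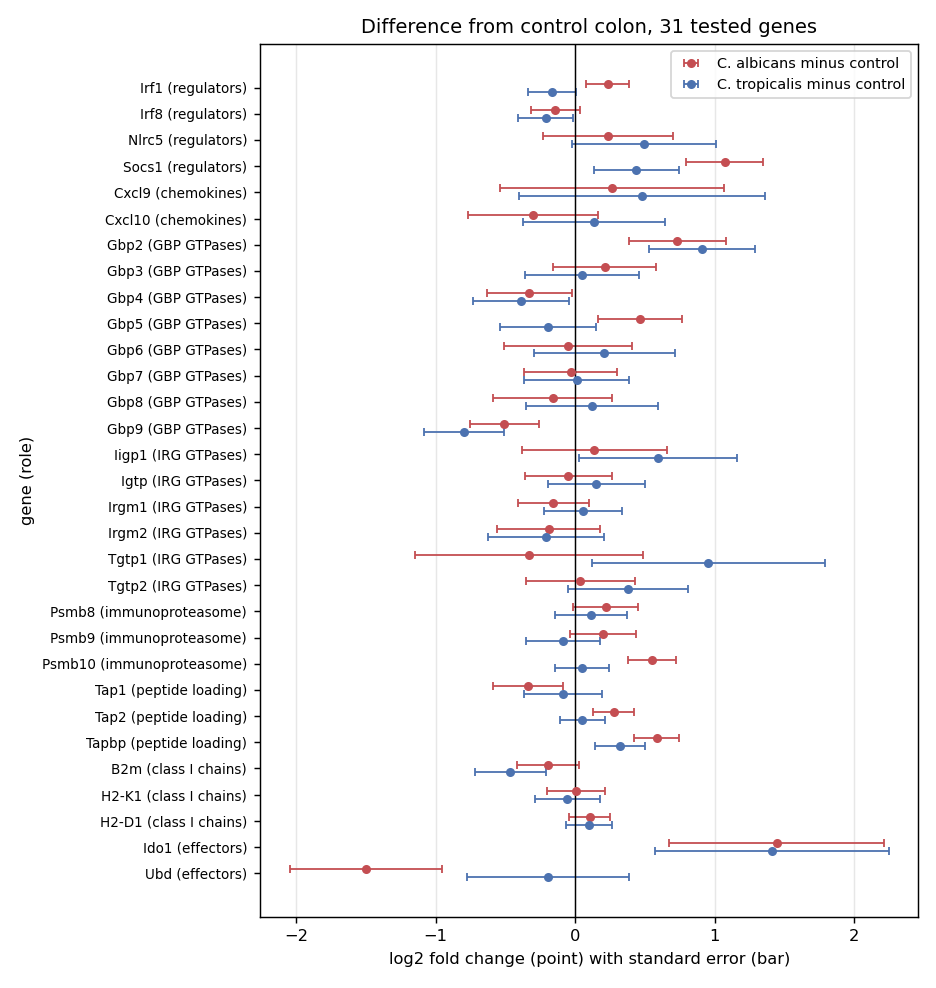
Log2 fold change of the 31 tested genes from control colon, with the standard error as a bar, for C. albicans (red) and C. tropicalis (blue). Points lie on both sides of 0 in most roles, and the widest bars belong to Ido1, Cxcl9 and Tgtp1.

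Among the regulators, Socs1 had the smallest p of any member. Socs1 (chromosome 16, 10782240 to 10785536, minus strand, GRCm38) encodes a suppressor of cytokine signalling that the cytokine induces and that shuts JAK kinases off. It stood at 3.14, 5.24 and 6.67 CPM in control 1, 2 and 3, at 9.16, 10.7 and 11.8 CPM in C. albicans 1, 2 and 3, and at 7.42 and 6.18 CPM in C. tropicalis 1 and 2. All 3 C. albicans libraries lay above all 3 controls and above both C. tropicalis libraries, while C. tropicalis 2 lay inside the control range. The mean was 10.6 ± 1.34 CPM with C. albicans and 5.02 ± 1.77 CPM in controls (SD, n = 3 and 3), 2.10-fold, with a log2 fold change of 1.07 ± 0.28 (SE, edgeR adjusted p = 0.201). DESeq2 called Socs1 (log2 1.08 ± 0.30, adjusted p = 0.0192), and over all 18 alternatives the adjusted p ran from 0.0192 to 0.551. With C. tropicalis the mean was 6.80 ± 0.882 CPM (SD, n = 2), and the difference from C. albicans was -0.64 ± 0.31 on the log2 scale (edgeR adjusted p = 0.255).

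Irf1, the transcription factor of that further wave, was the regulator with the highest level per kb of exon. In CPM its control mean (101.4) was below that of Irf8 (108.4). It stood at 118, 101 and 85.0 CPM in control 1, 2 and 3, at 124, 109 and 125 CPM in C. albicans 1, 2 and 3, and at 99.8 and 80.9 CPM in C. tropicalis 1 and 2. Both C. tropicalis libraries lay below all 3 C. albicans libraries and overlapped the controls, with a log2 difference between the species of -0.40 ± 0.17 (SE, edgeR adjusted p = 0.209). Irf8, a factor of macrophages, dendritic cells and B cells, ran from 78.3 to 120.3 CPM with overlapping groups, and the 95% interval of its C. albicans fold was 0.688 to 1.19. Nlrc5, the coactivator of class I genes, stood between 1.97 and 6.86 CPM and was higher in library 1 than in library 2 in every group. Neither Irf8 nor Nlrc5 was called.

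Both chemokines tested were low. Cxcl9 stood at 0.685, 0.0596 and 0.645 CPM in control 1, 2 and 3, at 1.07, 0.315 and 0.305 CPM in C. albicans, and at 0.971 and 0.340 CPM in C. tropicalis. Control 2 is below the level that 3 counts give. Cxcl10 ran from 0.671 CPM in C. albicans 3 to 1.88 CPM in C. tropicalis 1. These chemokines draw CXCR3-bearing T cells, and the 95% interval of the C. albicans fold ran from 0.341 to 4.24 for Cxcl9 and from 0.391 to 1.68 for Cxcl10. Both intervals include no change, and the values at this depth and spread do not tell apart the folds inside them.

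Of the 8 GBPs tested, 3 were higher and 5 lower with C. albicans, and 5 were higher and 3 lower with C. tropicalis. Gbp2 (chromosome 3, 142620602 to 142638008, plus strand), a GTPase that coats pathogen vacuoles, stood at 15.5, 10.3 and 10.7 CPM in control 1, 2 and 3, at 27.5, 16.9 and 16.2 CPM in C. albicans 1, 2 and 3, and at 32.4 and 13.2 CPM in C. tropicalis 1 and 2. All C. albicans libraries lay above all controls, and C. tropicalis 2 lay within the control range. The mean was 20.2 ± 6.33 CPM with C. albicans and 22.8 ± 13.6 CPM with C. tropicalis, against 12.1 ± 2.89 CPM in controls (SD, n = 3, 2 and 3). The log2 fold change was 0.73 ± 0.35 for C. albicans (edgeR adjusted p = 0.339) and 0.91 ± 0.38 for C. tropicalis (edgeR adjusted p = 0.309). The C. tropicalis value ran from 0.12 to 1.42 over the alternatives.

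Gbp9 had lower values with both species. Gbp9 (chromosome 5, 105077630 to 105139539, minus strand) stood at 3.60, 3.69 and 4.57 CPM in control 1, 2 and 3, at 2.64, 3.26 and 2.44 CPM in C. albicans, and at 2.46 and 2.10 CPM in C. tropicalis. All 5 colonized libraries lay below the 3 controls, which both comparisons share. The log2 fold change was -0.51 ± 0.25 for C. albicans (edgeR adjusted p = 0.353) and -0.80 ± 0.29 for C. tropicalis (edgeR adjusted p = 0.267). Its neighbour Gbp4 also lay lower in both C. tropicalis libraries (2.46 and 2.61 CPM) than in the controls (2.63, 2.68 and 4.63 CPM), a log2 difference of -0.39 ± 0.35 (edgeR adjusted p = 0.603). Gbp4, Gbp8 and Gbp9 share 60 or 61 bp of exon on the same strand in this annotation, and 18.1% of the 50-base words of Gbp8 occur in other genes, so their counts are partly uncertain.

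Gbp5, which takes part in inflammasome assembly, did not overlap between the species, as was so for 45.9% of all tested genes. It stood at 3.94, 3.15 and 3.29 CPM in C. albicans 1, 2 and 3 and at 2.28 and 2.10 CPM in C. tropicalis, with controls from 1.67 to 3.37 CPM. The log2 difference of C. tropicalis from C. albicans was -0.66 ± 0.35 (edgeR adjusted p = 0.292). Gbp3 ran from 3.395 to 8.94 CPM, Gbp7 from 3.00 to 5.26 CPM and Gbp8 from 0.997 to 2.74 CPM, each with overlapping groups. Gbp6 ran from 0.472 to 0.971 CPM, and 70.7% of its 50-base words occur in other genes (84.1% for Gbp10). Summed with Gbp10, the log2 fold change was 0.067 ± 0.48 for C. albicans and 0.21 ± 0.54 for C. tropicalis (edgeR adjusted p = 0.954 and 0.873).

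**Figure D3:**
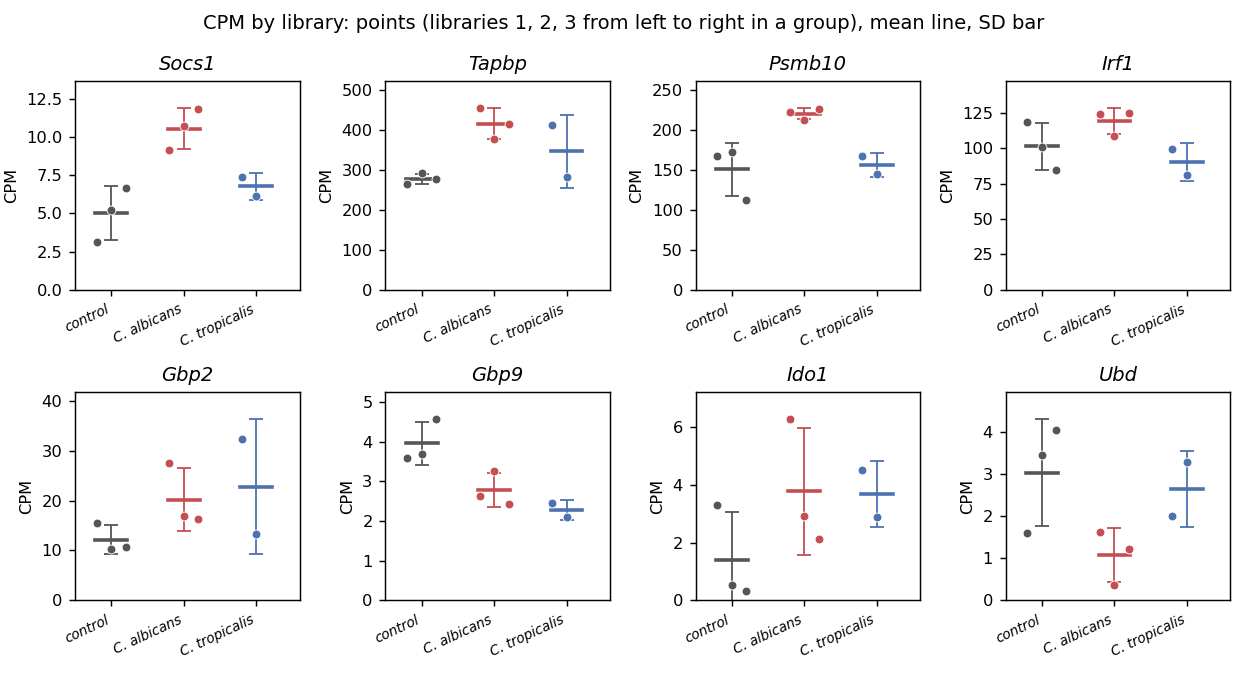
CPM of 8 members by library (points, in the order of the labels' numbers 1, 2, 3 from left to right within a group), with the group mean as a line and the SD as a bar. Socs1, Tapbp, Psmb10 and Gbp2 have all 3 C. albicans libraries above the 3 controls, Gbp9 has them below, and Ido1 and Ubd overlap.

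The IRGs spread widely inside each group, and the groups overlapped for all but Tgtp2 in the C. tropicalis comparison. Irgm2, which protects the cell's own membranes from the other GTPases, stood at 29.7, 13.5 and 11.2 CPM in control 1, 2 and 3, at 21.9, 12.4 and 13.5 CPM in C. albicans, and at 17.9 and 13.5 CPM in C. tropicalis. Its relative Irgm1 stood at 41.9, 25.4 and 21.4 CPM in controls, at 33.2, 22.7 and 23.7 CPM in C. albicans, and at 32.4 and 29.0 CPM in C. tropicalis. Igtp (IRGM3) stood at 12.5, 7.27 and 7.80 CPM in controls, at 11.6, 6.19 and 8.84 CPM in C. albicans, and at 12.6 and 7.82 CPM in C. tropicalis. In each of these genes library 1 was the highest of its group, and 0 of the 6 IRGs passed in any comparison. The 95% interval of the C. albicans fold was 0.605 to 1.33 for Irgm1, 0.491 to 1.56 for Irgm2 and 0.593 to 1.58 for Igtp.

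The effector IRGs were lower in level. Iigp1 (IRGA6), which disrupts parasite vacuoles, stood at 4.28, 1.67 and 2.37 CPM in control 1, 2 and 3, at 5.45, 1.995 and 1.71 CPM in C. albicans, and at 5.25 and 3.12 CPM in C. tropicalis. Tgtp1 ran from 0.0525 to 1.54 CPM and Tgtp2 from 0.892 to 2.02 CPM. These neighbours on chromosome 11 are near copies, with 79.4% of the 50-base words of Tgtp1 and 85.8% of those of Tgtp2 shared, so the division of reads between them is uncertain. Their summed counts gave log2 fold changes of -0.061 ± 0.45 for C. albicans and 0.58 ± 0.49 for C. tropicalis (edgeR adjusted p = 0.955 and 0.579). Igtp and Irgm2 share 162 bp of exon, and 11.8% of the words of Igtp occur in Irgm2.

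Of the 3 inducible proteasome subunits, Psmb10 set the C. albicans libraries apart and Psmb8 and Psmb9 did not. Psmb10 (chromosome 8, 105935735 to 105938444, minus strand; the beta2i subunit) stood at 168, 172 and 112.5 CPM in control 1, 2 and 3, at 222, 213 and 226 CPM in C. albicans, and at 167 and 145 CPM in C. tropicalis. All C. albicans libraries lay above all others, and C. tropicalis lay within the control range. The mean was 220.7 ± 6.73 CPM with C. albicans and 151 ± 33.4 CPM in controls (SD, n = 3 and 3), 1.46-fold, with a log2 fold change of 0.55 ± 0.17 (edgeR adjusted p = 0.245). C. tropicalis differed from C. albicans by -0.50 ± 0.19 (edgeR adjusted p = 0.171).

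Psmb8 (beta5i) ran from 15.96 to 30.2 CPM and Psmb9 (beta1i) from 22.5 to 44.4 CPM, with C. albicans 1 the highest library for both. The log2 fold change with C. albicans was 0.22 for Psmb8 and 0.20 for Psmb9, with 95% intervals of -0.30 to 0.74 and -0.34 to 0.73. Psmb9 shares 212 bp of exon with Tap1 on the opposite strand, and the library kit did not keep the strand, so their reads in that stretch cannot be told apart.

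Each inducible subunit takes the place of a constitutive one as a proteasome is built, so each was set against its partner per kb of exon. The size of a ratio rests on the length of all annotated exons joined, while its order among libraries does not. That length was 1.705 kb for Psmb10, 3.421 kb for Psmb7, 3.381 kb for Psmb8 and 0.899 kb for Psmb5. As ratios of counts, the control means were 4.08 for Psmb10 to Psmb7 and 0.39 for Psmb8 to Psmb5. Psmb10 to Psmb7 was 8.40, 8.31 and 7.82 in control 1, 2 and 3, 14, 13.4 and 14.5 in C. albicans, and 9.31 and 7.28 in C. tropicalis. The C. albicans ratios lay above all others, at 14 ± 0.546 against 8.18 ± 0.315 in controls (SD, n = 3 and 3; two-sided exact permutation p = 0.1, the smallest that 3 against 3 allows) and 8.29 ± 1.44 with C. tropicalis (n = 2; exact permutation p = 0.1 against C. albicans, the smallest that 3 against 2 allows, and 1 against control). Psmb8 to Psmb5 was 0.104 ± 0.0108 in controls, 0.114 ± 0.0551 with C. albicans and 0.106 ± 0.025 with C. tropicalis (exact permutation p = 0.9 and 1 against control). Psmb9 to Psmb6 was 0.127 ± 0.0225, 0.146 ± 0.059 and 0.123 ± 0.0369 in the same order (exact permutation p = 0.8 and 0.9 against control). The 9 comparisons were not adjusted, since none could reach 0.05. Of the constitutive partners alone, Psmb7 had a log2 fold change of -0.22 ± 0.15 and Psmb5 of 0.13 ± 0.18 with C. albicans (edgeR adjusted p = 0.487 and 0.743). With C. tropicalis, Psmb5 had 0.09 ± 0.20 and Psmb7 0.046 ± 0.17 (edgeR adjusted p = 0.854 and 0.913). Between the species, Psmb7 had 0.26 ± 0.17 and Psmb6 -0.055 ± 0.14 (edgeR adjusted p = 0.383 and 0.860).

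**Figure D4:**
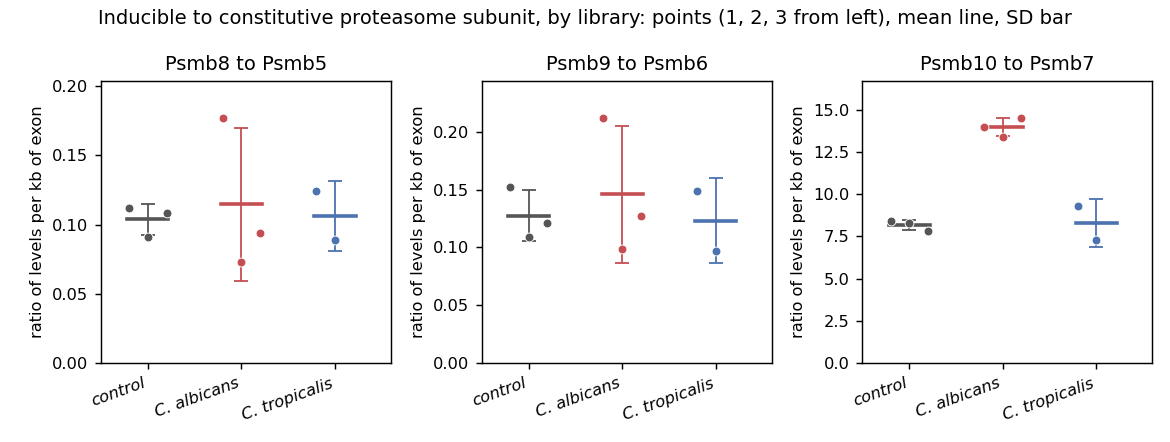
Ratio of each inducible proteasome subunit to its constitutive partner, both per kb of exon, in each library (points), with the group mean as a line and the SD as a bar. The 3 C. albicans libraries lie between 13.4 and 14.5 for Psmb10 to Psmb7, above the other 5, while the groups overlap for the other ratios.

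Among the peptide loading genes, Tapbp was the one with separated groups. Tapbp (tapasin, which bridges TAP and class I; chromosome 17, 33915899 to 33929292, plus strand) stood at 265, 292 and 277 CPM in control 1, 2 and 3, at 455, 378 and 416 CPM in C. albicans, and at 412 and 283 CPM in C. tropicalis. The C. albicans libraries lay above all controls, and the C. tropicalis libraries were split between both ranges. The mean was 416 ± 38.7 CPM with C. albicans and 278 ± 13.6 CPM in controls (SD, n = 3 and 3), 1.499-fold, with a log2 fold change of 0.58 ± 0.16 (edgeR adjusted p = 0.216). DESeq2 called it (0.59 ± 0.17, adjusted p = 0.027), and the adjusted p ran from 0.027 to 0.551 over the alternatives. With C. tropicalis the log2 fold change was 0.32 ± 0.18 (edgeR adjusted p = 0.411), and -0.048 without library 1 of each group. Tapbp shares 149 bp of exon with Zbtb22 on the same strand. Tap1 and Tap2, the subunits of the peptide transporter, ran from 29.1 to 54.0 CPM and from 32.4 to 52.1 CPM with overlapping groups. Their log2 fold changes with C. albicans were -0.34 and 0.28, with 95% intervals of -0.90 to 0.23 and -0.05 to 0.61, which both hold 0.

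For the class I chains the groups overlapped in every comparison. H2-K1 stood at 1723, 2485 and 1543 CPM in control 1, 2 and 3, at 2099, 1603 and 2065 CPM in C. albicans, and at 1961 and 1726 CPM in C. tropicalis. H2-D1 ran from 1140 to 1460 CPM. The 95% intervals of the C. albicans fold were 0.725 to 1.39 for H2-K1 and 0.853 to 1.36 for H2-D1, and those of C. tropicalis 0.669 to 1.38 and 0.827 to 1.39. Class I genes share sequence (9.63% and 12.8% of the words of H2-K1 and H2-D1 occur in other genes), and the sum of both gave log2 fold changes of 0.045 ± 0.18 and 0.007 ± 0.21 (edgeR adjusted p = 0.914 and 0.99). B2m, the shared light chain, stood at 557, 590.3 and 339.7 CPM in controls, at 492.5, 381 and 426 CPM in C. albicans, and at 309 and 409 CPM in C. tropicalis. Control 3 lay inside the range of the colonized libraries, and the C. tropicalis log2 fold change was -0.47 ± 0.25 (edgeR adjusted p = 0.400).

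Ido1, which degrades tryptophan, and Ubd, a ubiquitin-like modifier also called FAT10, were low and variable. Ido1 stood at 3.31, 0.536 and 0.323 CPM in control 1, 2 and 3, at 6.30, 2.94 and 2.13 CPM in C. albicans, and at 4.51 and 2.89 CPM in C. tropicalis. Control 1 lay among the colonized libraries, while control 2 and 3 lay below all 5. The log2 fold change was 1.45 for C. albicans (95% interval -0.29 to 3.18) and 1.41 ± 0.84 for C. tropicalis (edgeR adjusted p = 0.439). Without library 1 of each group, the log2 fold change of Ido1 for C. albicans was 2.56 ± 0.49. This choice was made after the values were seen, and it takes out control 1, the only control that lay among the colonized libraries.

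Ubd went the other way. It stood at 1.60, 3.46 and 4.03 CPM in control 1, 2 and 3, at 1.63, 0.368 and 1.22 CPM in C. albicans, and at 1.999 and 3.29 CPM in C. tropicalis. Control 1 and C. albicans 1 overlapped, and the log2 fold change with C. albicans was -1.5 ± 0.55 (edgeR adjusted p = 0.270). C. tropicalis lay above C. albicans by 1.30 ± 0.59 (edgeR adjusted p = 0.228). This difference was -0.42 ± 0.77 (edgeR adjusted p = 0.923) once a score of smooth muscle genes was entered in the fit. B cell markers varied beside Ubd, and the summed level of 8 B cell genes was 17.3, 237 and 279 CPM in control 1, 2 and 3, 63.9, 11.4 and 51.8 CPM in C. albicans, and 67.4 and 94.6 CPM in C. tropicalis. All 8 B cell genes had negative log2 fold changes with C. albicans (median -2.06) and with C. tropicalis (median -1.10), 0 of them past the threshold. Of 16 tested genes of T cells, NK cells and innate lymphoid cells, 13 were lower and 3 higher with C. albicans (median -0.59), 0 past the threshold. The higher ones were the granzyme genes Gzma (1.47 ± 0.53, with all C. albicans libraries above all controls) and Gzmb (1.95 ± 0.72), at edgeR adjusted p = 0.270 and 0.275, and Klrd1 (0.03 ± 0.34). With C. tropicalis, 12 of the 16 genes were lower and 4 higher (median -0.74), 0 past the threshold. Ubd itself had -0.20 ± 0.58 with C. tropicalis against control (edgeR adjusted p = 0.891). The part of these cells in the Ubd values was not tested, and in bulk colon fewer cells of a type and less RNA per cell cannot be told apart.

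Within groups, the GTPases followed a pattern of single libraries. The library that the labels number 1 was the highest of its group in all 3 groups for 14 of the 31 tested members (45.2%), beside 7.11% of all tested genes. This count was made after the values were seen and has no test. The 14 were Cxcl9, Gbp2, Gbp3, Gbp5, Gbp6, Gbp7, Iigp1, Igtp, Irgm1, Irgm2, Tgtp1, Psmb8, Psmb9 and Ido1, thus 5 of 8 GBPs and 5 of 6 IRGs, with 0 of 4 regulators, 0 of 3 peptide loading genes and 0 of 3 class I chains. Library 2 was the highest in all 3 groups for 0 members, beside 7.13% of all genes, and library 1 the lowest for 0 members, beside 5.54%. The Gbp2 level of library 1 was 1.48, 1.66 and 2.45 times the mean of the other libraries in control, C. albicans and C. tropicalis. The corresponding ratios were 2.40, 1.69 and 1.32 for Irgm2 and 7.72, 2.48 and 1.56 for Ido1.

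Among the GBPs, Gbp2, Gbp3, Gbp5 and Gbp7 of the chromosome 3 cluster and Gbp6 on chromosome 5 followed this pattern. The other tested GBPs of chromosome 5, Gbp4, Gbp8 and Gbp9, had their highest control level in control 3 (4.63, 2.74 and 4.57 CPM). Of the members with a promoter window, the response element core was in 8 of the 11 that followed the pattern and in 4 of the 12 other tested members. A link between the core and the pattern was not tested. The near copies Tgtp1 and Tgtp2 both held the core, and only Tgtp1 followed the pattern, but the division of reads between them is uncertain. For Tgtp2, control 1 (1.31 CPM) lay just below control 3 (1.34 CPM). The summed counts of both genes followed the pattern. The sum was 2.06, 1.31 and 1.94 CPM in control 1, 2 and 3, and 2.87, 0.945 and 1.28 CPM in C. albicans. In C. tropicalis the sum was 3.2 and 2.1 CPM. Outside the members, 14 of 24 genes of a type I interferon list followed it (Isg15, Ifit1, Oas1a and Rsad2 among them), as did 11 of 30 other interferon-gamma targets. Of the cell marker lists, 0 of 16 epithelial genes followed it, 0 of 16 of T and NK cells, 0 of 9 of dendritic cells, 0 of 8 of B cells, 0 of 12 of smooth muscle, 0 of 8 of endothelium and 1 of 12 of macrophages (Mertk). The summed type I interferon list stood at 676, 354 and 315 CPM in control 1, 2 and 3, at 519.9, 407 and 403 CPM in C. albicans, and at 432 and 327 CPM in C. tropicalis. The labels give no batch, cage or day that the number could stand for.

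**Figure D5:**
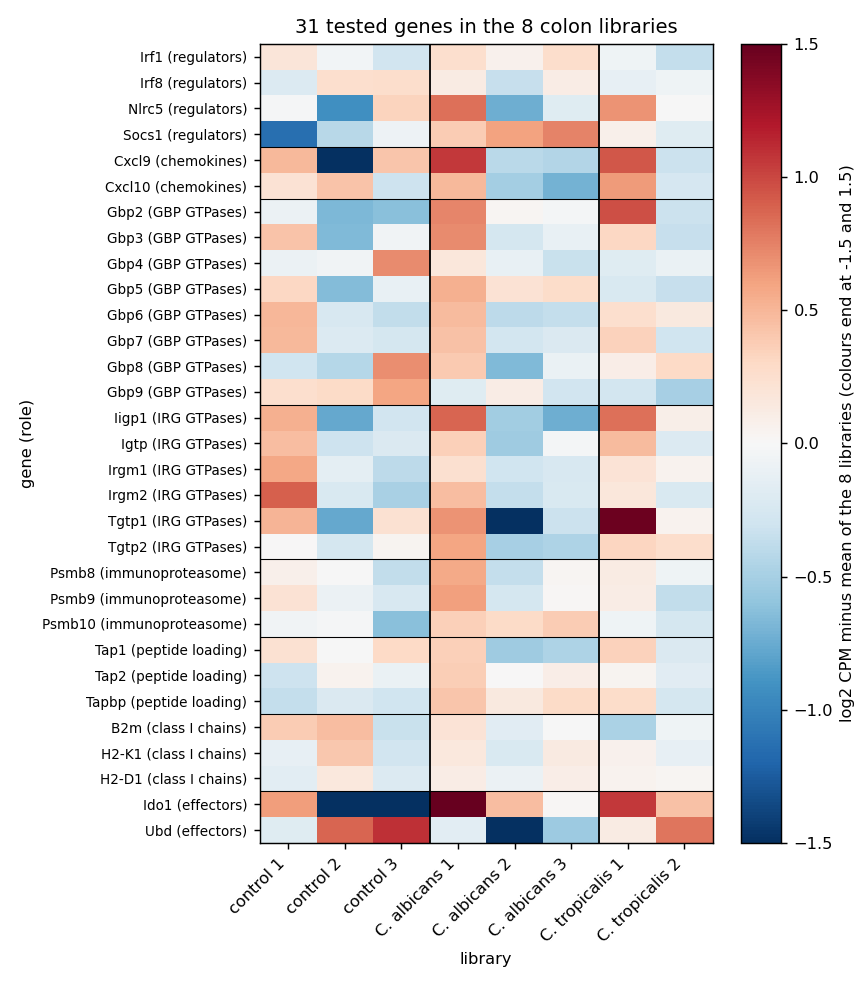
Log2 CPM of the 31 tested genes minus each gene's mean over the 8 libraries (colour, ending at -1.5 and 1.5), with libraries as columns and genes as rows grouped by role. The GBP and IRG rows are mostly red in control 1, C. albicans 1 and C. tropicalis 1, and Socs1 and Psmb10 are red in all 3 C. albicans libraries.

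Upstream of the members, 14 of the 20 listed genes of the interferon-gamma ligand, receptor and signalling path could be tested and 0 passed in any comparison. Ifngr1 stood at 269, 330.2 and 295 CPM in control 1, 2 and 3, at 247, 210.3 and 236 CPM in C. albicans, and at 258 and 281 CPM in C. tropicalis. All C. albicans libraries lay below all controls, with a log2 fold change of -0.36 ± 0.13 (edgeR adjusted p = 0.268). Ifngr2 had -0.32 ± 0.13 with C. albicans (edgeR adjusted p = 0.310) and lay 0.37 ± 0.15 higher with C. tropicalis than with C. albicans (edgeR adjusted p = 0.179). With C. tropicalis against control, Ifngr1 had -0.14 ± 0.15 and Ifngr2 0.055 ± 0.15 (edgeR adjusted p = 0.661 and 0.880), and Ifngr1 differed between the species by 0.22 ± 0.15 (edgeR adjusted p = 0.406). The inducers Il12b and Il27 were at or near the detection limit, with 14 and 8 counts over all libraries. With C. tropicalis the smallest p belonged to Il18r1 (-1.20 ± 0.58, edgeR adjusted p = 0.356) and the phosphatase gene Ptpn1 (0.25 ± 0.16, edgeR adjusted p = 0.475). Between the species it was Ifngr2 and Jak2 (0.25 ± 0.13, edgeR adjusted p = 0.291).

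Of 32 other interferon-gamma targets, 30 were tested and 0 passed, with medians of -0.16 for C. albicans, -0.054 for C. tropicalis and 0.12 between the species (-0.30 with the smooth muscle score in the fit). Upp1, a uridine phosphorylase, stood at 50.2, 103 and 74.3 CPM in control 1, 2 and 3, at 162, 54.5 and 122 CPM in C. albicans, and at 291 and 204 CPM in C. tropicalis. Both C. tropicalis libraries lay above all others, with a log2 fold change from control of 1.70 ± 0.42 (edgeR adjusted p = 0.184; 0.00309 by DESeq2), which was 0.75 with the smooth muscle score in the fit. Batf2, a partner of IRF1, stood at 26.2, 35.9 and 42.6 CPM in controls and at 77.0 and 55.3 CPM in C. tropicalis, with 42.2 to 57.1 CPM in C. albicans. Its log2 fold change was 0.92 ± 0.23 for C. tropicalis (edgeR adjusted p = 0.183; 0.0196 by DESeq2; 0.48 with the muscle score) and 0.51 ± 0.21 for C. albicans (edgeR adjusted p = 0.296). Wars, a tRNA synthetase, had 0.39 ± 0.16 with C. albicans (edgeR adjusted p = 0.294) and 0.50 ± 0.17 with C. tropicalis (edgeR adjusted p = 0.264). Between the species, Trafd1 lay lower with C. tropicalis by -0.71 ± 0.21 (edgeR adjusted p = 0.0987) and the aminopeptidase gene Lap3 higher by 0.54 ± 0.18 (edgeR adjusted p = 0.125). With the muscle score in the fit these differences were -0.36 for Trafd1 and 0.028 for Lap3 (edgeR adjusted p = 0.847 and 0.986).

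Of the 22 other genes of the class I path, 0 passed in any comparison by the edgeR test. Calr, the calreticulin gene whose product holds new class I chains for loading, stood at 590, 709 and 573 CPM in control 1, 2 and 3, at 618, 506 and 670 CPM in C. albicans, and at 856 and 904 CPM in C. tropicalis. Both C. tropicalis libraries lay above all others, with log2 differences of 0.50 ± 0.17 from control (edgeR adjusted p = 0.265) and 0.56 ± 0.17 from C. albicans (edgeR adjusted p = 0.102; 0.0225 by DESeq2). Rfxap, part of the complex on class I and class II promoters, had 0.44 ± 0.14 with C. tropicalis (edgeR adjusted p = 0.250). H2-T23, which encodes Qa-1, stood at 252 and 241 CPM in C. tropicalis, below C. albicans (361, 354 and 381 CPM) by -0.57 ± 0.18 (edgeR adjusted p = 0.104). DESeq2 called this difference (adjusted p = 0.0191), as did edgeR on those 2 groups alone (adjusted p = 0.0474). With C. albicans the smallest p belonged to Tapbpl, the tapasin relative (0.37 ± 0.18, edgeR adjusted p = 0.350), and H2-M3 (-0.49 ± 0.24, edgeR adjusted p = 0.353). Both had the same sign with C. tropicalis, at 0.43 ± 0.20 for Tapbpl and -0.39 ± 0.27 for H2-M3 (edgeR adjusted p = 0.337 and 0.497). H2-T3, a class I gene of gut epithelium named after its values were seen, stood at 49.5, 7.63 and 0.215 CPM in control 1, 2 and 3, at 15.1, 50.8 and 35.6 CPM in C. albicans, and at 0.685 and 1.08 CPM in C. tropicalis. The controls spanned the range of H2-T3 up to its top, where C. albicans 2 lay just above control 1. The log2 difference of H2-T3 between the species was -5.25 ± 1.68 (edgeR adjusted p = 0.112).

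The type I interferon list, whose genes respond to the related interferons and overlap the targets of interferon-gamma, had 24 tested genes and 0 calls. Its medians were -0.23 for C. albicans (6 higher and 18 lower), -0.64 for C. tropicalis (3 higher and 21 lower) and -0.15 between the species. The medians against control rested on control 1: without it they were 0.53 for C. albicans (18 higher and 6 lower) and 0.16 for C. tropicalis (17 higher and 7 lower). Ifit2 stood at 9.596, 5.66 and 3.33 CPM in control 1, 2 and 3 and at 2.51 and 2.78 CPM in C. tropicalis, a log2 fold change of -1.23 ± 0.42 (edgeR adjusted p = 0.261), or -0.76 without control 1. Ddx58, the RNA sensor RIG-I, had -0.74 ± 0.29 with C. tropicalis (edgeR adjusted p = 0.289), or -0.38 without control 1. Between the species the differences were -1.17 ± 0.42 for Ifit2 and -0.64 ± 0.29 for Ddx58 (edgeR adjusted p = 0.140 and 0.221), and -0.19 and -0.38 with the muscle score. With C. albicans, Oasl1 had 0.66 ± 0.31 and Mx2 -1.19 ± 0.59 (edgeR adjusted p = 0.337 and 0.356). Without control 1 these were 1.14 and -0.26, and without library 1 of each group Oasl1 passed (1.19 ± 0.16, edgeR adjusted p = 0.0255).

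Cell markers varied beside these values, and their part in the members' levels was not tested. The 18 genes of T cells, NK cells and innate lymphoid cells summed to 24.3, 71.4 and 78.7 CPM in control 1, 2 and 3, to 27.3 to 45.9 CPM in C. albicans and to 36.9 and 41.0 CPM in C. tropicalis. Control 1, in which most IRGs were highest among controls, had the lowest lymphocyte sums of its group, and C. albicans 1 the highest of its group. Macrophage genes summed to 277 to 514 CPM in controls, 289 to 432 CPM in C. albicans and 346 to 436 CPM in C. tropicalis. Smooth muscle genes summed to 7590 to 14550 CPM in controls, to 10730 to 31100 CPM in C. albicans and to 4357 and 5637 CPM in C. tropicalis, so that both C. tropicalis libraries lay below all others. No marker of these lists was at 0 in all libraries.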

How the data were processed

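Total RNA of 8 colon libraries was made into NEBNext Ultra RNA libraries, which do not keep the strand. The deposited table holds counts, whole numbers of reads per Ensembl gene with no normalization. Per the submitters' processing notes, the tools were TopHat2 2.0.12, DESeq 1.18.0 and HTSeq, whose version is given there as 6.1, on build mm10. Which annotation was counted, with which strand option, is not given in the sources used here. Gene symbols, positions and exon lengths came from GENCODE M21 on GRCm38, which matched 52489 of 52636 identifiers (the other 147 held 0.00317% of counts); overlap and 50-base words shared with other genes were counted there. Promoter windows are RefSeq's (GRCm38.p6).

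The test was edgeR 4.0.16 (R 4.3.3) with TMM, filterByExpr on the 3 groups, one quasi-likelihood fit of group over 8 libraries (5 residual and 4.052 prior degrees of freedom, common biological coefficient of variation 0.243), Benjamini-Hochberg adjustment over 16107 genes and a threshold of 0.05. The fit was tested on simulated data. CPM values use TMM-adjusted library sizes, and genes are compared in level per kb of exon. To look for a library deposited more than once, libraries of a group were compared: their counts differed by 21 to 80.5 times the sampling noise (chi-square per degree of freedom), where repeats of one library would lie near 1.

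The members, lists and tests were chosen with earlier results of these data known. Values are given for the 5 members with the smallest p in each comparison, plus the 2 genes with the smallest p in each other list, Ifng, Ifngr1 and Ifngr2 (1 further gene of the rule is not reported here); genes named beyond that illustrate levels or ranges. Alternatives were DESeq2 1.42.0 (as a test and for size factors), upper-quartile factors, limma-voom (limma 3.58.1), no filter, a filter asking 3 libraries to reach 1 CPM, fits without the group not compared, a block on replicate number, a covariate for smooth muscle genes, a threshold of 0.1, ratios of counts not per kb, and each library left out. Leaving out library 1 of all groups, the medians of the other lists under omissions and the share of all genes apart under omissions were chosen once the values were known. Figures used matplotlib 3.10.9.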

Additional observations from a re-analysis of the deposited data

How the results depend on the processing

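No member passed an adjusted p of 0.05 under the alternatives listed above, except Socs1 and Tapbp for C. albicans with DESeq2 (2 members). Without the libraries numbered 1 of all 3 groups, chosen after seeing the data, 1 member passed (Ido1, C. albicans). Among the other interferon-gamma targets, between the species, Trafd1 passed with DESeq2 (adjusted p = 0.0248), in the fit of those 2 groups (edgeR, adjusted p = 0.0391) and without control 1 (0.0389), and Lap3 without C. albicans 1 (0.0489); with the smooth muscle covariate they were at -0.36 and 0.028. Upp1 and Batf2 (DESeq2), Calr (DESeq2), H2-T23 (DESeq2 and the fit of 2 groups) and Oasl1 (without libraries 1) also passed, as given in the results. The number of all genes called was far less stable. Against 7, 5 and 0 calls (C. albicans, C. tropicalis, and one species against the other), no filter on low counts gave 119, 71 and 1127, DESeq2 461, 393 and 1737, and a threshold of 0.1 gave 43, 10 and 1481. A fit of the 2 groups alone gave 0 for C. tropicalis and 858 between the species, and the smooth muscle covariate gave 0 for C. tropicalis. Leaving out libraries numbered 1 gave 774, 0 and 443. With each library left out in turn the counts ran from 0 to 254, from 0 to 192 and from 0 to 1315. A lone C. tropicalis library was taken to vary as the other groups do. The same omissions gave 5 to 10, 3 to 16 and 5 to 16 members with libraries that do not overlap, beside 19.4% to 37.8%, 32.5% to 57.8% and 45.9% to 69.4% of all genes, since fewer libraries overlap less often. The highest share of members was 51.6% (16 of 31, beside 57.8% and 62%). In each of the 8 omissions and 3 comparisons the members' share was below that of all genes. These settings reuse the same libraries and are not separate outcomes. Omitting a library of the group not compared left both shares as they were. The members' median between the species was -0.43 with the smooth muscle covariate. As ratios of counts, control, C. albicans and C. tropicalis stood at 0.39, 0.43 and 0.4 (Psmb8 to Psmb5), 0.249, 0.285 and 0.24 (Psmb9 to Psmb6) and 4.08, 6.96 and 4.13 (Psmb10 to Psmb7), which drop the exon lengths.

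Signs turned for a few values, and the cause was not tested. Most of them were near 0 in the fit of all 8 libraries. Ubd between the species (1.30) and Tapbp with C. tropicalis (0.32) were not. For C. tropicalis against control, Ifngr2 was -0.015 with upper-quartile factors, -0.14 with the muscle covariate, -0.10 without libraries 1 and -0.038 (without control 1) to 0.12 with a library left out; Psmb7 was -0.025 with upper-quartile factors and -0.029 with the block, and -0.10 to 0.14 with a library left out; Psmb5 was -0.065 to 0.23 with a library left out; and Tapbp was -0.048 without libraries 1. For C. albicans against control, Psmb5 was -0.096 with the covariate and -0.022 to 0.29 with a library left out. Between the species, Ubd was -0.42 and Psmb6 0.24 with the covariate, and with a library left out Psmb6 was -0.15 to 0.017.

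With the replicate number as a block, 0 genes were called against control for either species. The numbers were not taken as pairs: the deviations of same-numbered libraries from their group means correlated at -0.392 (control 1 and C. albicans 1), -0.0795 and -0.128 for the other numbers of that comparison, at -0.0188 and 0.029 for control and C. tropicalis, and at 0.156 and 0.147 for the species, so the block result is no measure of effect size. Depth limited the chemokines, Gbp6, Gbp10, Tgtp1 and Ifng.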
